A study of Mus musculus with 18 samples.

Results

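The hindlimb bud of wild type mouse embryos was compared between stages e11.0 and e11.5, named by embryonic day. The comparison used 6 of the 18 libraries of the series, 3 at each stage, all from hindlimbs of BALB/c embryos with wild type Pitx1, collected from timed breedings. The e11.0 libraries were made from total RNA by ribosomal RNA depletion with strand kept. The e11.5 libraries were made by mRNA enrichment from polyadenylated RNA, and replicate 3 of them was unstranded. Stage, kind of library and the table that holds the values changed together, so their parts in a difference cannot be told apart, and no test was run across the stages. Nothing in the labels ties replicates to separate litters or embryo pools, and the spread given here is that between these libraries. Hindlimbs of Pitx1 null BALB/c embryos, with 3 libraries at each stage made in the same 2 ways, gave another set of differences that shares no library with the wild type. Hindlimbs of wild type CD1 embryos at e11.0, 3 libraries made by ribosomal depletion, served as an alternative e11.0 group of another strain.

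A hindlimb bud at these stages is a pocket of mesenchyme under a jacket of ectoderm, with vessels, blood, and muscle precursors that migrate in from the somites. Fgf signals from the ridge of thickened ectoderm at its rim sustain outgrowth, Shh from the posterior mesenchyme patterns it from front to back, and retinoic acid and Meis factors mark its proximal end. As the bud grows, the Hox genes at the 5′ end of the HoxA and HoxD clusters come to mark the future foot, and mesenchyme condenses into the first cartilage under the control of Sox9.

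Of 12935 genes listed at both stages, 879 were dropped by symbol (clustered histone, mitochondrial, Rn7s, Gm and Rik genes), and the other 12056 were compared. Levels are CPM, counts per 1000000 reads, rescaled to a total of 1000000 over these genes. A difference is the mean of log2(CPM + 1) at e11.5 minus that at e11.0, given with its standard error (SE, from 3 and 3 libraries). A gene was called higher or lower where this difference was at least 1 in size and the 3 libraries of the stages did not overlap. By this rule 1171 genes (9.71%) were higher and 609 (5.05%) were lower at e11.5, against a median difference of 0.07 over all genes. The count of each list below is to be read beside these shares of all genes. Without regard to size, 4188 genes (34.7%) were higher and 3275 (27.2%) lower with no overlap of the stages. Higher genes thus made up 65.8% of the calls, and 54.9%, 55.6% and 54.1% of them under trimmed-mean, median-ratio and upper-quartile scaling. In null hindlimbs 1414 genes (11.7%) were higher and 956 (7.93%) lower by the same rule. Against CD1 e11.0 libraries, with 11882 genes in all 3 tables, the same e11.5 libraries had 877 genes (7.38%) higher and 129 (1.09%) lower. In these bulk samples fewer cells of a type and less RNA per cell cannot be told apart.

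Tissue markers matched the label at both stages. The e11.0 and e11.5 libraries held 149.5, 127 and 139.9 CPM and 329, 338 and 374 CPM of Pitx1, and Prrx1, of limb mesenchyme, was at 698, 702 and 477 CPM and 936, 876 and 672 CPM. In Pitx1 null hindlimbs the targeted gene, Pitx1, was at 25.6, 21.7 and 24.9 CPM at e11.0 and 73.6, 80.6 and 90.8 CPM at e11.5. Tbx5, the T-box factor of the forelimb, was not among the listed genes of either stage. RNAs without a poly(A) tail or kept in the nucleus, which mRNA enrichment can lose, were lower at e11.5. Malat1 was at 1569, 1755 and 1779.8 CPM at e11.0 and 110.4, 62.5 and 60.6 CPM at e11.5, Rmrp at 2262, 3134 and 6709 CPM and 1.33, 1.18 and 0.213 CPM, and 8 of 12 genes of this list were called lower, with a median of -1.66. Against CD1 e11.0, also made by ribosomal depletion, 4 of the 12 were called lower, with a median of -0.57. Among the dropped symbols, 11 clustered histone genes had a median difference of -7.27. Depth implied by the step between low values, in units of 1000000 reads, was 17.4 to 42.9 at e11.0 and 35.5 to 53.1 at e11.5.

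**Figure D1:**
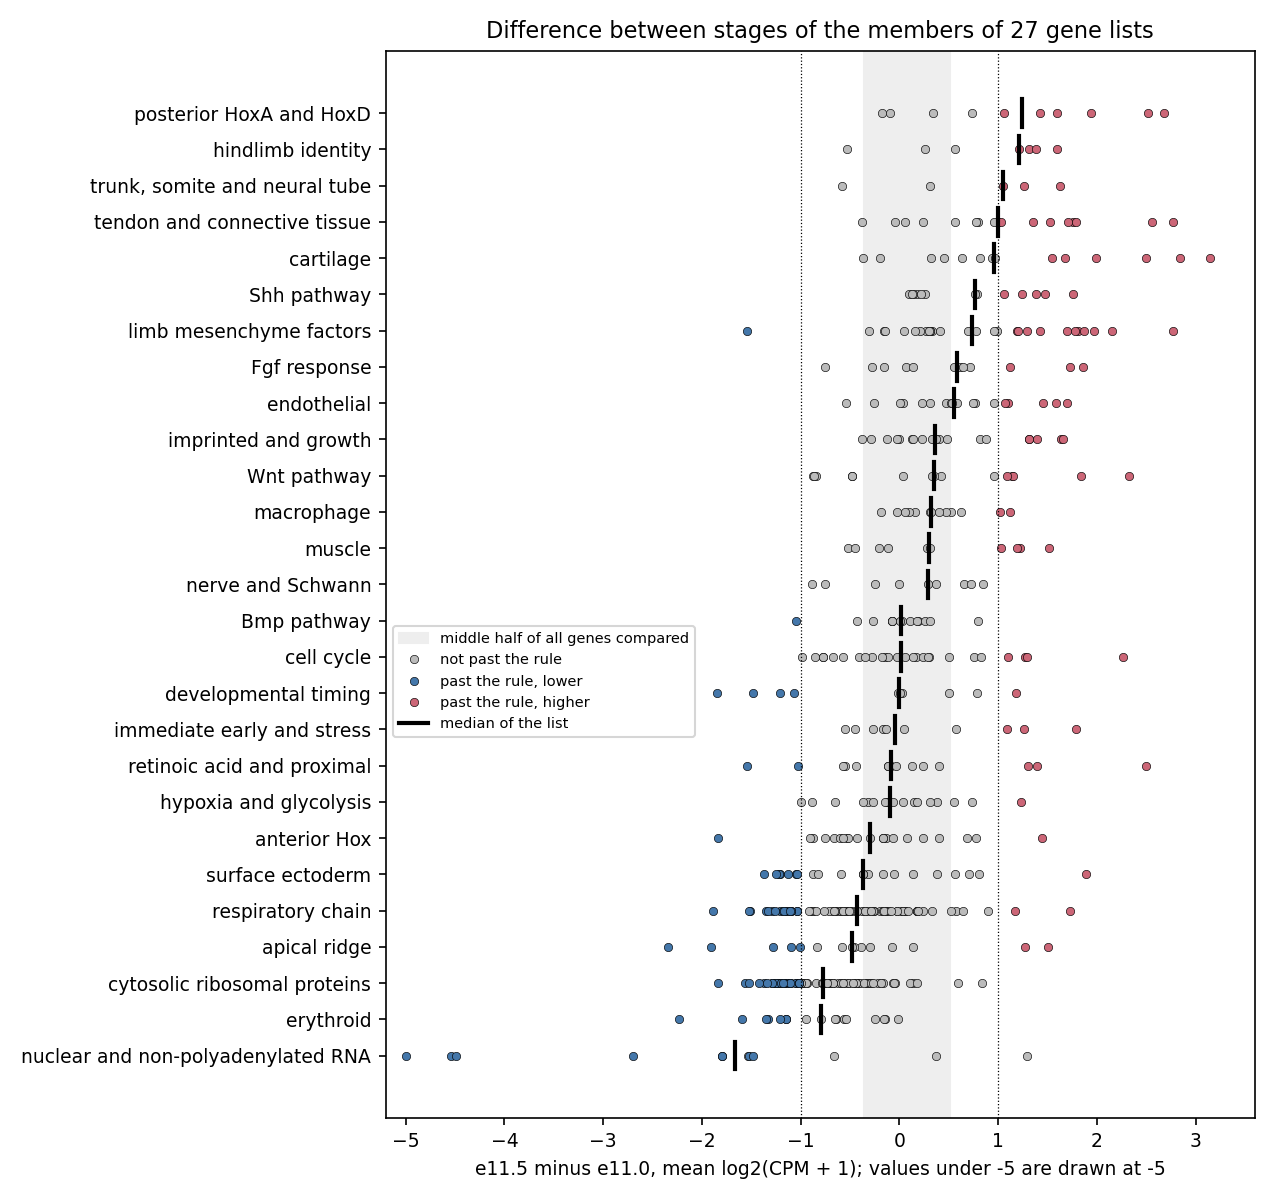
Difference between the stages, e11.5 minus e11.0 in mean log2(CPM + 1), for each member of 27 gene lists, with the list medians as black bars and the range between the quartiles of the 12056 genes as a grey band. Posterior HoxA and HoxD genes and hindlimb identity genes sit highest, with medians of 1.24 and 1.21, and nuclear and non-polyadenylated RNAs sit lowest, with a median of -1.66.

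Most genes of hindlimb identity were higher at e11.5. Of 7 compared, 4 were called higher and 0 lower, with a median difference of 1.21, and the 4 are all transcription factors of the hindlimb. Pitx1 (chromosome 13, 55825051 to 55836192, minus strand, GRCm38), the homeodomain factor that sets hindlimb identity, rose from the levels above by 1.32 ± 0.09. Tbx4 (chromosome 11, 85886422 to 85916097, plus strand), the hindlimb T-box factor, was at 85.3, 64.2 and 72.2 CPM at e11.0 and 184, 174 and 226 CPM at e11.5, a difference of 1.38 ± 0.16. Every e11.5 library was above every e11.0 library for both. The HoxC genes Hoxc10 (1.60 ± 0.14) and Hoxc11 (1.21 ± 0.13) were called higher too, while Hoxc9 (0.26 ± 0.18) and Hoxc13 (0.56 ± 0.34) overlapped between the stages. Isl1, which acts upstream of outgrowth in the nascent hindlimb, was at 28.7, 30.6 and 26.6 CPM and 13.6, 16.1 and 33.4 CPM. Of the e11.5 libraries, replicates 1 and 2 lay under all e11.0 libraries and the unstranded replicate 3 lay above them. The CD1 e11.0 hindlimbs lay between the BALB/c stages, at 239.7, 235 and 199.5 CPM for Pitx1 and 144, 142 and 124 CPM for Tbx4. Against them 1 of 6 genes of this list, Hoxc10 (1.38), was called higher, with Pitx1 at 0.63 and Tbx4 at 0.50.

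The posterior HoxD genes were higher towards the 5′ end of their cluster, while in HoxA only Hoxa13 was called. Of 10 posterior HoxA and HoxD genes, counting Evx2 beside the HoxD cluster, 6 were called higher and 0 lower, with a median of 1.24. Within HoxD the difference was -1.83 at Hoxd4, -0.58 at Hoxd8, 1.06 at Hoxd9, 0.74 at Hoxd10, 1.42 at Hoxd11, 1.94 at Hoxd12 and 2.52 at Hoxd13. It thus grew with the paralog number, except that Hoxd10 lay under Hoxd9 by about the SE of either (0.29). Hoxd13 (chromosome 2, 74668310 to 74671599, plus strand), a gene of the future digits, was at 41.3, 51.7 and 39.7 CPM at e11.0 and 292, 291 and 200.3 CPM at e11.5. Evx2, its homeobox neighbour, went from 1.36, 1.92 and 3.63 CPM to 21.3, 21.004 and 16.3 CPM, a difference of 2.69 ± 0.31. Hoxa13, the other gene of the future foot, went from 27.6, 30.8 and 31.1 CPM to 105, 107 and 69.1 CPM (1.60 ± 0.21). The HoxA genes next to it, which mark more proximal segments of the limb, did not follow it. Hoxa11 was at 129, 123 and 73.3 CPM and 122, 109.5 and 71.7 CPM, with replicate 3 lowest at both stages and the stages overlapping. Hoxa9 (-0.18 ± 0.21) and Hoxa10 (0.34 ± 0.21) overlapped as well. Against CD1 e11.0, 3 of the 10 were called higher, Hoxd13 at 2.32, Evx2 at 2.44 and Hoxd12 at 1.18.

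**Figure D2:**
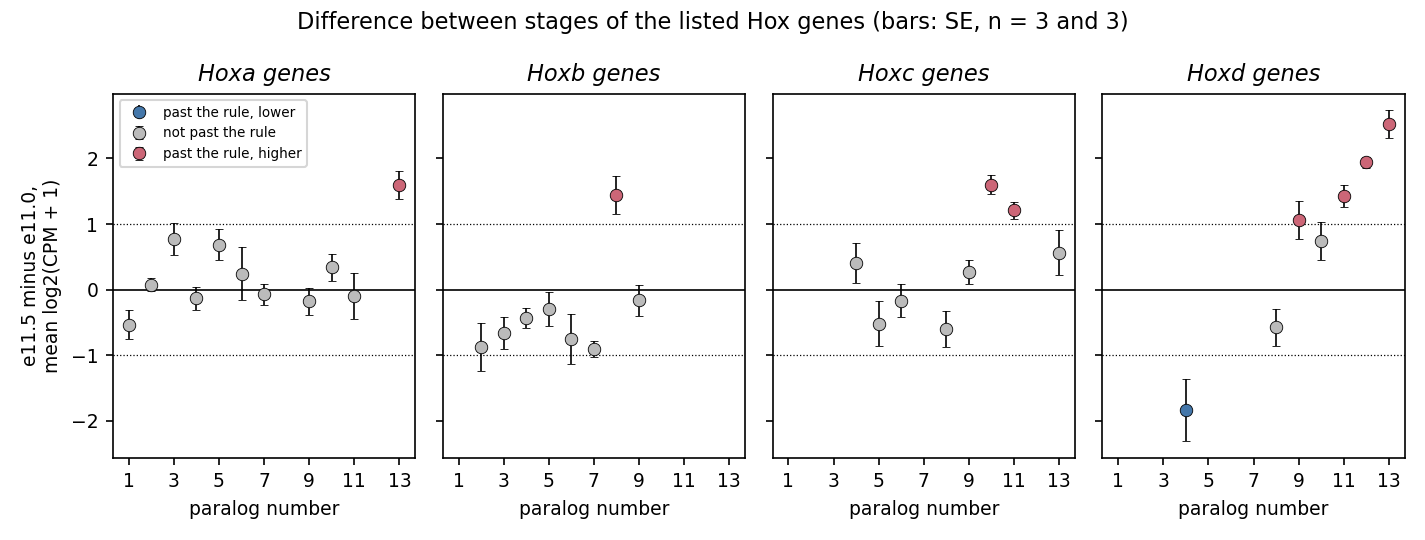
Difference between the stages in mean log2(CPM + 1) for each listed Hox gene by cluster and paralog number, with the SE as bars and dotted lines at -1 and 1. Hoxd13 (2.52), Hoxd12 (1.94) and Hoxa13 (1.60) stand at the upper right, and Hoxa11 (-0.10) stands near 0.

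Hox genes from the anterior part of the clusters were near or under 0. Of 21 compared, 1 was called higher, Hoxb8, and 1 lower, Hoxd4, with a median of -0.30. Each is 4.76% of the list, against 9.71% higher and 5.05% lower of all genes. Hoxd4 fell from 10.9, 11.1 and 9.14 CPM to 1.59, 1.07 and 5.05 CPM. Hoxb8 was near the listing limit at e11.0, at 0.68, 0.769 and 1.36 CPM, and at 3.74, 3.10 and 6.28 CPM at e11.5. Hoxb2, Hoxb3, Hoxb4 and Hoxb7 lay between -0.91 and -0.43, lower in all 3 e11.5 libraries than in any e11.0 library and short of the size for a call. The count of lower genes was 3 without e11.0 replicate 1 and 2 without any of the e11.5 replicates.

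Several Shh pathway genes were higher at e11.5. Of 13 genes, 5 were called higher and 0 lower, with a median of 0.77. Shh (chromosome 5, 28456815 to 28467256, minus strand), the posterior signal itself, was at 6.29, 8.53 and 8.47 CPM at e11.0 and 19.7, 17.0 and 15.2 CPM at e11.5 (1.07 ± 0.16). Hand2, the posterior factor upstream of Shh, went from 101, 94.8 and 74.2 CPM to 245, 242 and 163 CPM (1.24 ± 0.24). The targets and effectors Gli1 (1.48 ± 0.45) and Gli2 (1.76 ± 0.37) and the co-receptor Boc (1.38 ± 0.09) were called higher. Ptch1 (0.79 ± 0.18), a receptor that Shh signalling itself induces, did not overlap between the stages but stayed under the size for a call. Gli3 (0.14 ± 0.12), the repressor of the pathway, and Smo (0.22 ± 0.13), its signal transducer, lay near 0. With the 3 other scalings 4 of the 13 were called, since Shh itself lies close to the limit. Against CD1 e11.0 the called genes were Gli1 (1.11) and Gli2 (1.51), with Shh at 0.69.

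Genes of the apical ridge went in both directions. Of 15, 5 were called lower (33.3%, against 5.05% of all genes) and 2 higher (13.3%, against 9.71%), with a median of -0.48. Fgf8 (chromosome 19, 45736798 to 45742915, minus strand), the main ridge signal, was at 47.9, 61.2 and 128 CPM at e11.0 and 31.5, 22.7 and 34.9 CPM at e11.5 (-1.27 ± 0.46). Fgf4, the ridge Fgf that depends on Shh, went from 8.16, 9.49 and 18.9 CPM to 1.04, 1.10 and 2.45 CPM (-2.34 ± 0.42). In both genes e11.0 replicate 3 stood above the other 2 e11.0 libraries, and all e11.5 libraries lay under them. The ectodermal zinc finger factor Sp8 (-1.003 ± 0.33) and the dorsal signal Wnt7a (-1.09 ± 0.36) were called lower in the same way. Sp6 (-1.91 ± 1.12) was at 25.5, 22.3 and 1.95 CPM at e11.5, lowest in the unstranded replicate 3, and its difference over replicates 1 and 2 alone was -0.47. Dlx2 (1.27 ± 0.48) and Dlx5 (1.503 ± 0.23), homeobox genes of the ridge and the distal bud, were higher instead. Without e11.0 replicate 3 the ridge list had 2 lower genes, without e11.5 replicate 3 it had 3, and with replicates 1 and 2 of both stages alone it had 1, Fgf4 (-2.24). Against CD1 e11.0, where Fgf8 was at 38.2, 42.3 and 34.4 CPM, 1 of 13 was lower, again Fgf4 (-1.27), the median was 0.13, and Wnt7a turned from lower to 0.05.

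Surface ectoderm, which shares its source with the ridge, showed the same spread among libraries. Of 21 genes, 7 were called lower and 1 higher, with a median of -0.37, and their summed level was 545 to 1394 CPM in the e11.0 libraries and 571 to 655 CPM in the e11.5 libraries. The part of this tissue difference in the ridge values was not tested. Krt8, a simple epithelial keratin, was at 32.3, 41.0 and 79.9 CPM and 19.8, 15.7 and 23.5 CPM, and Epcam, an epithelial adhesion protein, at 53.7, 68.6 and 134 CPM and 38.3, 27.9 and 35.2 CPM. Grhl2 (-1.37 ± 0.42), a transcription factor of epithelia, Cldn6 (-1.21 ± 0.43), of tight junctions, and Perp (-1.13 ± 0.31), of desmosomes, were lower as well. No gene of the list was lower without e11.0 replicate 3, 2 were with replicates 1 and 2 of both stages alone, and 0 were against CD1 e11.0, where 5 were higher and the median was 0.30. Tfap2a, a factor of early epidermis, was the higher call, from 5.49, 5.90 and 12.9 CPM to 34.3, 29.3 and 28.4 CPM (1.89 ± 0.36, and 2.84 against CD1 e11.0). Krt5, the keratin of the basal epidermis, went from 32.3, 40.7 and 113 CPM to 94.5, 88.3 and 99.2 CPM, where e11.0 replicate 3 exceeded all e11.5 libraries, and differed by 1.81 from CD1 e11.0.

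Among genes of Fgf signalling and its response, 3 of 12 were called higher and 0 lower, with a median of 0.59. Fgf10, the mesenchymal signal that keeps the ridge, went from 16.4, 12.8 and 10.023 CPM to 34.3, 32.1 and 22.4 CPM (1.12 ± 0.26). Fgfr1, an Fgf receptor of the mesenchyme, went from 129, 87.6 and 156 CPM to 387, 381 and 444 CPM (1.73 ± 0.25). Fgfr2, the receptor of the ectoderm, lay at -0.75 ± 0.30. The negative feedback gene Spred2 was called higher (1.86 ± 0.26), and the direct response genes Dusp6 (0.07 ± 0.18), Etv4 (0.14 ± 0.11) and Spry1 (-0.16 ± 0.10) overlapped between the stages. Against CD1 e11.0, 1 of the 12 was called, Spred2 (1.80), while Fgfr1 (0.998) lay just under the size for a call, and the list median was -0.09.

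In the Wnt pathway 5 of 15 genes were called higher and 0 lower. Of these, the secreted inhibitors Sfrp2 and Wif1 differed most. Sfrp2 went from 21.2, 16.5 and 20.4 CPM to 99.2, 103 and 101 CPM (2.33 ± 0.11), and Wif1 from 7.59, 8.53 and 10.8 CPM to 37.6, 38.4 and 28.1 CPM (1.84 ± 0.20). Wnt5a (1.09 ± 0.18), the distal mesenchymal ligand, Nkd1 (1.14 ± 0.13), a feedback inhibitor, and Tcf7 (1.15 ± 0.22), a nuclear effector, completed the called genes, and Axin2 (0.04 ± 0.28), the usual readout of canonical signalling, overlapped. Higher calls numbered 3 without e11.0 replicate 2, and 2 lower calls appeared without e11.0 replicate 1. Bmp genes differed little, with 0 called higher and 7.14% lower, against 9.71% and 5.05% of all genes. Of 14, 1 was called, Bambi, a pseudoreceptor that dampens Bmp signalling, at 79.5, 91.5 and 111 CPM and 43.3, 40.5 and 50.3 CPM (-1.05 ± 0.17), and it was not called without e11.0 replicate 3 or e11.5 replicate 2. Id1 (-0.26 ± 0.09), Id2 (-0.08 ± 0.22) and Id3 (0.03 ± 0.04), direct Bmp targets, stayed near 0, as did Msx1 (0.31 ± 0.09). The Bmp median was 0.02 and the mean -0.01, and the median lay between -0.08 and -0.07 under the 3 other scalings. The antagonist Noggin (Nog) was listed at e11.5, at 1.10, 1.31 and 0.98 CPM, and not at e11.0.

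Retinoic acid genes and proximal factors moved apart. Cyp26b1, the enzyme that clears retinoic acid from the distal bud, went from 72.9, 48.3 and 80.4 CPM to 376, 378 and 376 CPM (2.50 ± 0.22). The retinol transporter Stra6 (1.30 ± 0.24) and the receptor Rarg (1.39 ± 0.11), found in cartilage precursors, were called higher. Rarb, a receptor that retinoic acid itself induces, fell from 65.8, 65.3 and 70.7 CPM to 17.5, 20.1 and 31.9 CPM (-1.54 ± 0.25). Meis1 (chromosome 11, 18879817 to 19018985, minus strand), a homeobox factor of the proximal limb, fell from 219.7, 224 and 221 CPM to 93.3, 99.5 and 137 CPM (-1.02 ± 0.17), and Meis2 (-0.03 ± 0.09) did not. Over the 15 genes the median was -0.08 and the mean 0.10. Lower calls numbered 1 without e11.5 replicate 1 or 2, and Meis1 was at -0.49 against CD1 e11.0, with Cyp26b1 at 1.40 and Rarb at -0.78.

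Many limb mesenchyme factors were higher. Of 28 compared, 11 were called higher and 1 lower, with a median of 0.74. Osr2, an odd-skipped factor of joints and connective tissue, went from 5.89, 4.23 and 3.58 CPM to 36.6, 35.2 and 37.5 CPM (2.77 ± 0.18). Sall1 (2.15 ± 0.16) and Sall3 (1.98 ± 0.28), zinc finger factors of the distal mesenchyme, and Osr1 (1.81 ± 0.14) followed. Lmx1b, the factor that dorsalises the bud, went from 43.9, 35.2 and 54.3 CPM to 137, 122 and 181 CPM (1.70 ± 0.24). Wnt7a, the ectodermal inducer of Lmx1b, was lower against BALB/c e11.0 but not against CD1 e11.0. The T-box genes Tbx2 (1.21 ± 0.31), Tbx15 (1.42 ± 0.32) and Tbx18 (1.29 ± 0.29) were called higher, and so was Shox2 (1.19 ± 0.33), a homeobox gene of the proximal skeleton. Prrx1 (0.41 ± 0.24), Prrx2 (0.31 ± 0.14) and Twist1 (0.30 ± 0.08), which mark limb mesenchyme at large, differed less. Alx1, of the anterior and girdle mesenchyme, was the lower call, from 10.9, 9.49 and 8.61 CPM to 1.71, 2.17 and 4.64 CPM (-1.54 ± 0.33). Pax9 was listed at e11.5 alone, at 6.16, 5.30 and 3.69 CPM, and Pax1, its relative at the anterior margin, went from 3.28, 3.27 and 9.73 CPM to 18.967, 20.8 and 17.4 CPM (1.78 ± 0.45). Against CD1 e11.0, 8 of these genes were called higher and 0 lower.

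Several cartilage genes were higher, and Col9a2 and Sox9 had the largest positive differences among the members of all 27 lists. Of 14, 6 were called higher and 0 lower, with a median of 0.95, and 7 were against CD1 e11.0. Sox9 (chromosome 11, 112782224 to 112787760, plus strand), the factor that starts cartilage condensation, was at 28.9, 24.1 and 34.0 CPM at e11.0 and 207, 218 and 211 CPM at e11.5 (2.84 ± 0.14), the lowest e11.5 library far above the highest e11.0 library. Its percentile rank among the 12056 genes went from 45.6 to 91.9. The type IX collagen chains Col9a2 and Col9a3, direct products of cartilage cells, went from 2.44, 2.56 and 3.47 CPM to 33.0, 36.8 and 28.3 CPM (3.14 ± 0.16) and from 2.15, 2.24 and 3.39 CPM to 19.7, 20.1 and 17.7 CPM (2.50 ± 0.16). Col2a1, the main cartilage collagen, went from 161, 166 and 363 CPM to 556, 616 and 708 CPM (1.54 ± 0.40). Runx2 (1.99 ± 0.29), a factor of hypertrophic cartilage and bone, and Gdf5 (1.68 ± 0.28), the marker of future joints, were called higher at levels under 14 CPM. The Sox9 partners Sox5 (0.94 ± 0.11) and Sox6 (0.45 ± 0.18) did not reach the size for a call. Matn4 and Cnmd, matrix genes of differentiating cartilage, and Runx3 were listed at e11.5 alone, Matn4 at 9.71, 8.83 and 6.64 CPM.

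A similar share of tendon and connective tissue genes was called higher, 8 of 17 with 0 lower and a median of 0.995. The type I collagen chains Col1a1 and Col1a2 went from 46.4, 32.5 and 125.7 CPM to 276, 342 and 433 CPM (2.56 ± 0.60) and from 284, 233 and 405 CPM to 976, 1081 and 994 CPM (1.76 ± 0.24). The small proteoglycan Lum (1.70 ± 0.47), the microfibril collagen Col6a1 (1.53 ± 0.18) and the immediate early factor Egr1 (1.79 ± 0.23), which also acts in tendon, were called higher. Scx, the early tendon factor, was at 28.1, 30.8 and 25.8 CPM and 54.2, 55.5 and 56.9 CPM (0.95 ± 0.07), apart between the stages and just under the size for a call. Col3a1 (0.24 ± 0.04) and Postn (0.05 ± 0.28) stayed near 0. Against CD1 e11.0, 7 genes of this list were called higher.

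**Figure D3:**
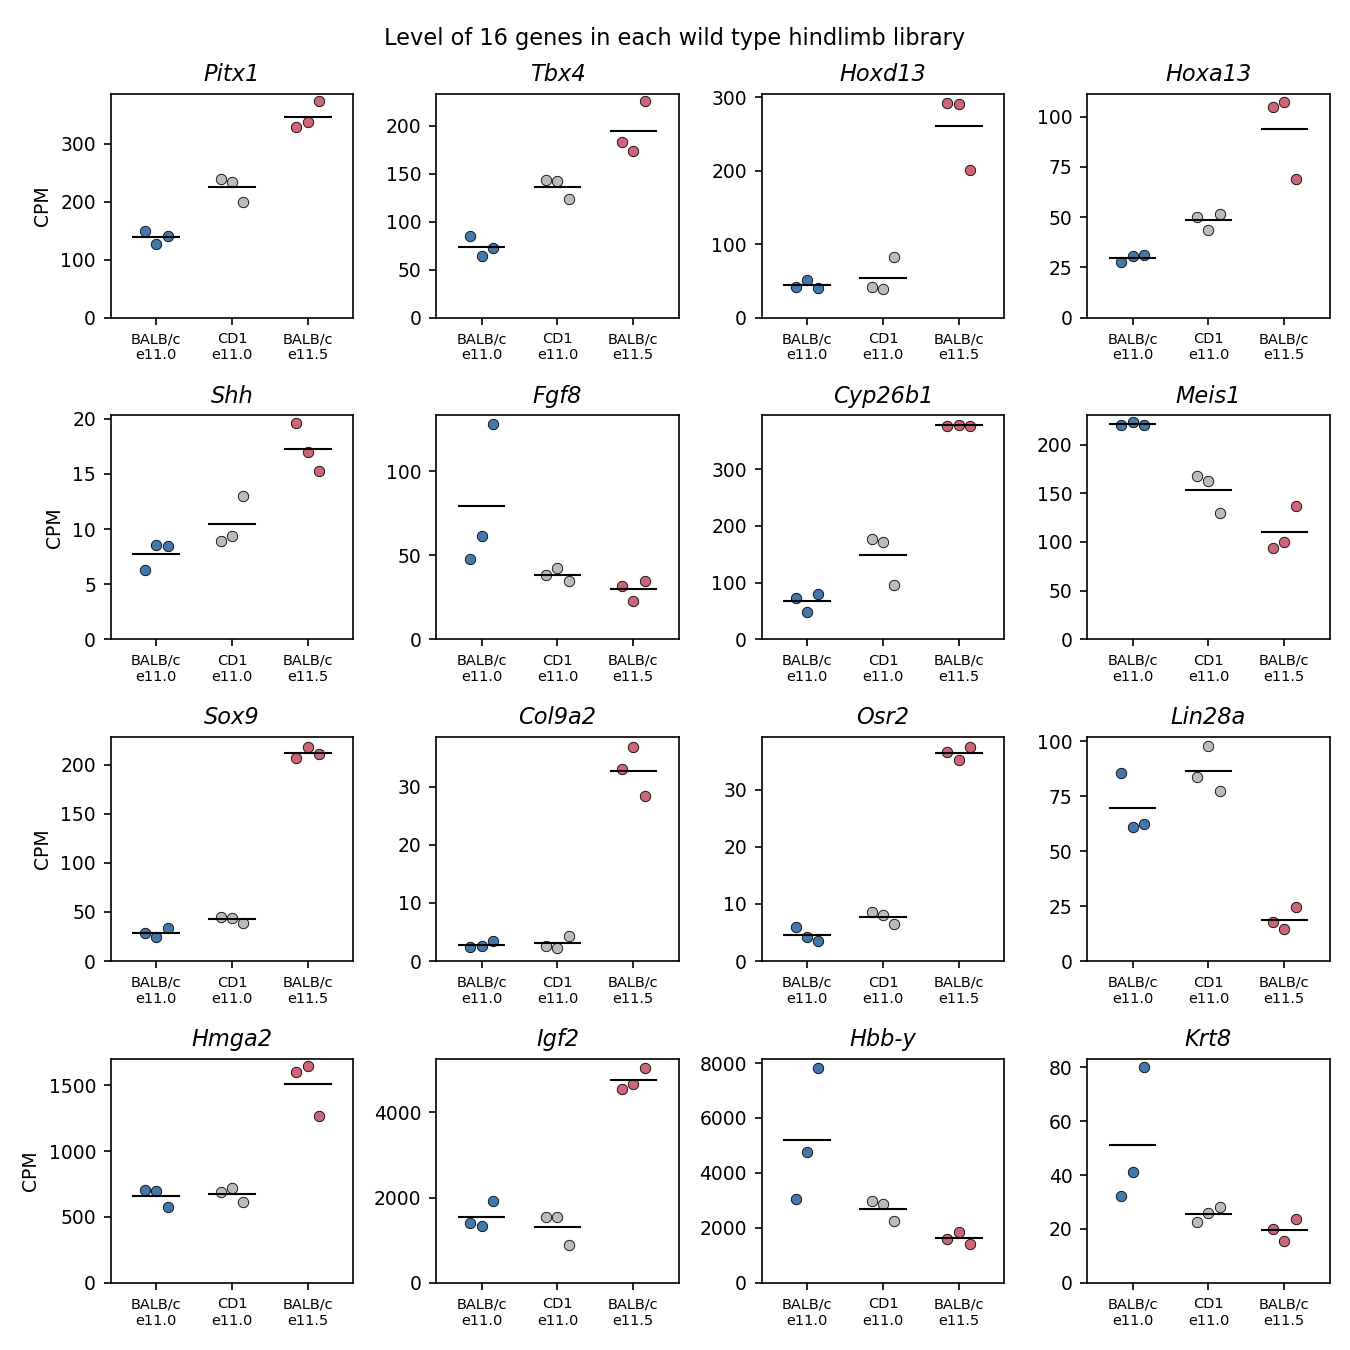
CPM of 16 genes in each BALB/c e11.0, CD1 e11.0 and BALB/c e11.5 library (points, replicates 1 to 3 from left to right), with the mean as a bar. Sox9, Col9a2, Osr2 and Igf2 in CD1 e11.0 lie with BALB/c e11.0, Pitx1, Tbx4 and Cyp26b1 lie between the stages, and Krt8 in CD1 e11.0 lies with e11.5. Fgf8 in CD1 e11.0 lies under BALB/c e11.0 and overlaps e11.5 with its lowest library alone.

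Several muscle genes were listed at e11.5 alone. Of 27 in the list, 10 were compared, 8 were listed at e11.5 alone and 1, Ttn, at e11.0 alone. Over all genes, 543 of the 13478 listed at e11.5 were listed there alone, and 1092 of the 14027 at e11.0. The 8 are Pax7, of muscle progenitors, the myogenic factors Myod1 and Myog, the regulators Msc and Vgll2, the cadherin Cdh15, the acetylcholine receptor subunit Chrna1 and the cardiac actin Actc1. At e11.5 Myod1 was at 8.08, 10.3 and 5.38 CPM, Myog at 5.43, 6.93 and 3.41 CPM and Pax7 at 1.74, 2.22 and 2.05 CPM. A gene was listed where it exceeded 1 CPM in at least 3 of the 6 libraries of its table, null libraries included, so their e11.0 levels were not analysed here. Of the 10 compared, 4 were called higher and 0 lower. Myf5, the first myogenic factor, went from 2.32, 3.08 and 2.57 CPM to 8.37, 7.90 and 6.34 CPM (1.22 ± 0.14), and Lbx1, of migrating precursors, from 11.8, 8.21 and 9.70 CPM to 22.3, 21.2 and 19.7 CPM (1.03 ± 0.15). Pax3 (0.31 ± 0.15) and Met (-0.21 ± 0.11), which mark precursors on their way into the limb, overlapped between the stages. Lbx1 lay under 1 with each of the 3 other scalings.

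Many blood genes were lower at e11.5. Of 17 erythroid genes, 7 were called lower and 0 higher, with a median of -0.80, and their summed level was 5552 to 13243 CPM at e11.0 and 3141 to 3728 CPM at e11.5. The embryonic beta globins differed most. Hbb-bh1 (chromosome 7, 103841637 to 103843164, minus strand) fell from 1352, 2088 and 3014 CPM to 454, 492 and 364 CPM (-2.23 ± 0.36), and Hbb-y from 3032, 4778 and 7835 CPM to 1594, 1852 and 1402 CPM (-1.59 ± 0.41). Hba-x, the embryonic alpha-like globin, was at 723, 1024 and 1592 CPM and 852, 976 and 1022 CPM and overlapped. The adult beta globins Hbb-bs (-0.54 ± 0.46) and Hbb-bt (-0.25 ± 0.54), near-identical copies whose reads can be split between them, overlapped too. Klf1 (-1.21 ± 0.20), the erythroid master factor, and Epb42 (-1.33 ± 0.19), of the red cell skeleton, were called lower. The e11.0 libraries differed among themselves, with replicate 3 highest and replicate 1 lowest for each of the 17 genes. Without e11.0 replicate 3 the count was 5, and without replicate 1 it was 9. Against CD1 e11.0 it was 3 of 16, Hbb-bh1 (-1.28), Hba-a1 and Hbb-bt, of which Hba-a1 and Hbb-bt were not called against BALB/c e11.0.

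Several vessel genes were higher. Of 19 endothelial genes, 5 were called higher and 0 lower, with a median of 0.55. Eng, a Tgf-beta co-receptor of endothelium, went from 11.2, 9.49 and 12.9 CPM to 33.3, 35.9 and 47.0 CPM (1.70 ± 0.19), Cdh5, the endothelial cadherin, from 51.4, 40.6 and 41.6 CPM to 118, 124 and 129.5 CPM (1.46 ± 0.11), and Sox18 from 9.12, 6.54 and 6.04 CPM to 21.6, 22.6 and 26.3 CPM (1.59 ± 0.18). Cldn5 (0.01 ± 0.17) and Emcn (-0.25 ± 0.28) did not move with them. The count was 3 without e11.0 replicate 2 and 2 against CD1 e11.0. Of 13 macrophage genes, 2 (15.4%, against 9.71% of all genes) were called higher, at levels under 12 CPM. These were Csf1r (1.12 ± 0.20) and Cx3cr1 (1.02 ± 0.15), receptors of the lineage. Of these calls 1 was lost without e11.0 replicate 1 or 2 or e11.5 replicate 2 or 3. The count was 0 with a pseudocount of 2, after centring by exonic length or by GC content, and in the null, where the list median was -0.05. Of 9 nerve and Schwann cell genes none was called, and Tubb3, a neuronal tubulin, was at 9.29, 9.49 and 14.9 CPM and 13.2, 14.0 and 16.5 CPM. Sox10, of Schwann cell precursors, was listed at e11.5 alone, at 1.58, 3.35 and 3.35 CPM. Of 16 genes that also mark trunk, somite and neural tube tissue, 5 were compared and the others were listed at neither stage. Foxc1 (1.26 ± 0.09), Foxc2 (1.62 ± 0.39) and Meox2 (1.05 ± 0.20) were called higher. Meox1 (0.31) was not called, and the lowest difference of the 5 was -0.58. The summed level of the 5 was 79.9 to 87.7 CPM at e11.0 and 157 to 173 CPM at e11.5. The part of tissue taken with the bud in other results was not tested.

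Genes of developmental timing, regulators that fall or rise as embryonic tissues mature, were split. Of 10, 4 were called lower (40%, against 5.05% of all genes) and 1 higher (10%, against 9.71%). Lin28a (chromosome 4, 134003330 to 134018841, minus strand), the RNA-binding protein that blocks maturation of let-7 microRNAs, fell from 85.8, 61.0 and 62.2 CPM to 17.6, 14.6 and 24.4 CPM (-1.84 ± 0.26), and its paralog Lin28b from 278, 259.8 and 154 CPM to 114, 102 and 102 CPM (-1.07 ± 0.27). The ubiquitin ligase Trim71, from 184, 127 and 184 CPM to 64.7, 59.8 and 87.9 CPM (-1.21 ± 0.24), and the nuclear receptor Nr6a1, from 13.4, 15.1 and 19.3 CPM to 4.43, 4.22 and 6.55 CPM (-1.49 ± 0.22), were lower too. Hmga2, a chromatin protein of growing tissue, went the other way, from 708, 699.5 and 579 CPM to 1603, 1648 and 1269 CPM (1.18 ± 0.15). The values of these 5 genes against CD1 e11.0 were -2.16 for Lin28a, -1.71 for Trim71, -1.33 for Lin28b, -1.04 for Nr6a1 and 1.15 for Hmga2. In null hindlimbs 1 of the 4, Nr6a1 (-1.16), was called lower. There Lin28a differed by -1.50 with overlap, from 37.4, 43.0 and 50.4 CPM to 6.75, 9.60 and 45.8 CPM. Lin28b centred by GC content was at -0.51. The mRNA-binding Igf2bp1 (-0.01 ± 0.31) and Igf2bp3 (0.01 ± 0.37) stayed near 0.

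Lin28a, Lin28b, Trim71 and Hmga2 are known as targets of let-7, so the microRNA and 1 match in the 3′ UTR of each are shown to let the shared letters be seen. The mature microRNA is given from RefSeq (GRCm38.p6) with its seed, bases 2 to 8, in capitals, and the UTR stretches from GENCODE transcripts with the 7 bases complementary to the seed (CTACCTC) in capitals, on the coding strand.
mmu-let-7a-5p: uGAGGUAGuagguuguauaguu
Lin28a, chr4:134005186-134005207, minus strand: agcctgttgaaCTACCTCattt
Lin28b, chr10:45381019-45381040, minus strand: gggcgggaagtCTACCTCatgc
Trim71, chr9:114512469-114512490, minus strand: ttgcctaagtcCTACCTCagct
Hmga2, chr10:120364221-120364242, minus strand: acattcaatttCTACCTCagca
The 3′ UTR of Lin28a holds 2 such matches, and those of Lin28b, Trim71 and Hmga2 hold 4 each. On the coding strand, 9 of the 10 timing genes hold at least 1, against 1275 (10.8%) of 11819 compared genes with an annotated 3′ UTR. The list holds genes known for this link, so the share is no finding. Among all 168 genes with at least 2 matches the median difference between the stages was 0.14, against 0.08 over all genes with a 3′ UTR. Of the timing genes with matches, Hmga2 was higher, and Lin28a, Lin28b, Trim71 and Nr6a1 (8 matches) were lower. Igf2bp1 (4 matches) stayed near 0. Whether let-7 bears on any of these differences was not tested. Levels of let-7 itself are not measured by these libraries.

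Imprinted and growth genes held 5 higher calls and 0 lower among 20, with a median of 0.36. Igf2, the fetal growth factor, went from 1393, 1325 and 1915 CPM to 4534, 4668 and 5047 CPM (1.64 ± 0.17), while H19, the noncoding RNA of the same locus, was at 6682, 7013 and 7694 CPM and 5325, 5243 and 5882 CPM (-0.38 ± 0.08), lower in every e11.5 library. Plagl1, a zinc finger regulator of imprinted genes, went from 45.6, 39.4 and 32.2 CPM to 120.4, 131 and 122 CPM (1.66 ± 0.15). Dlk1 (1.40 ± 0.36), a Notch-like inhibitor of differentiation, Peg10 (1.31 ± 0.17) and Magel2 (1.31 ± 0.29) were called higher as well. Peg3 (-0.02 ± 0.09) and Mest (0.13 ± 0.25) overlapped between the stages. Igf2, Plagl1, Dlk1 and Peg10 also reached 1 against CD1 e11.0, at 1.89, 1.75, 1.21 and 1.01.

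Of 26 cell cycle genes, 4 were called higher (15.4%, against 9.71% of all genes) and 0 lower. Cdkn1a, the p21 inhibitor of the cycle, went from 2.21, 3.21 and 7.51 CPM to 24.0, 21.3 and 21.9 CPM (2.26 ± 0.42), and the growth regulators Myc (1.29 ± 0.20), E2f1 (1.27 ± 0.20) and Ccnd2 (1.10 ± 0.21) were higher. Top2a (-0.77 ± 0.17), of mitotic chromosomes, and Mki67 (-0.27 ± 0.05), the proliferation marker, were lower in each e11.5 library than in each e11.0 library without reaching the size for a call. The list median was 0.02 and lay between -0.09 and -0.07 under the 3 other scalings. In hypoxia and glycolysis 1 of 18 genes was called higher (5.56%, against 9.71% of all genes), Hk1 (1.23 ± 0.17), a hexokinase. Gapdh (0.38 ± 0.08), Ldha (-0.13 ± 0.04) and Pkm (-0.12 ± 0.12) stayed within 0.38 of 0, and 2 lower calls appeared without e11.0 replicate 1. Of 10 immediate early and stress genes, Egr1, Jun (1.27 ± 0.28) and Ier2 (1.10 ± 0.16) were called higher, the list mean was 0.32 and its median -0.04, and Fos was listed at e11.0 alone, at 1.13, 0.978 and 1.10 CPM.

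Many ribosomal protein and respiratory chain genes were lower at e11.5. Of 83 cytosolic ribosomal protein genes, 33 were called lower and 0 higher, with a median of -0.77, and their summed level was 53575 to 63844 CPM at e11.0 and 34849 to 35628 CPM at e11.5. Rpl39 went from 367, 463 and 752 CPM to 139, 138 and 146 CPM (-1.83 ± 0.31), and Rpl4, at high level, from 2204, 2371 and 1789 CPM to 1726, 1719.8 and 1713 CPM (-0.29 ± 0.12). Of 75 respiratory chain genes, 17 were lower and 2 higher, with a median of -0.42. Cox7b fell from 202, 235 and 354 CPM to 97.5, 87.9 and 81.4 CPM (-1.52 ± 0.25), while Uqcrq went from 11.497, 12.2 and 16.5 CPM to 47.3, 49.5 and 42.4 CPM (1.73 ± 0.16) and Atp5b (-0.14 ± 0.02) stayed near 0. The lower counts were 20 and 7 without e11.0 replicate 3, 17 and 3 with replicates 1 and 2 alone, and 5 and 2 against CD1 e11.0.

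The base composition of transcripts moved with the difference between the stages over the whole table. Across 12042 genes Spearman's rho between the GC content of 1 transcript a gene, the longest coding one, and the difference was 0.49, a correlation across genes, which are not independent replicates. With genes in 10 equal groups by GC content, the lowest group had a median difference of -0.66 and the highest 0.52. Called higher genes had a median GC content of 55.4% and called lower genes of 42.1%, against 50.2% over all genes. The same measure moved within a stage, since rho between GC content and replicate 3 minus replicate 1 was 0.51 at e11.0 and 0.66 at e11.5. After each difference was centred on genes of like GC content, 687 of the 1171 higher and 241 of the 609 lower genes still met the rule. Centred values were 2.81 for Sox9, 2.55 for Hoxd13, 2.10 for Cyp26b1, -1.95 for Lin28a, -1.84 for Fgf8 and -2.12 for Hbb-bh1, all still past 1. They were 0.75 for Pitx1, 0.86 for Hoxd11, 0.82 for Shh, 0.77 for Hand2, 0.98 for Col2a1 and -0.66 for Meis1, under 1 in size.

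**Figure D4:**
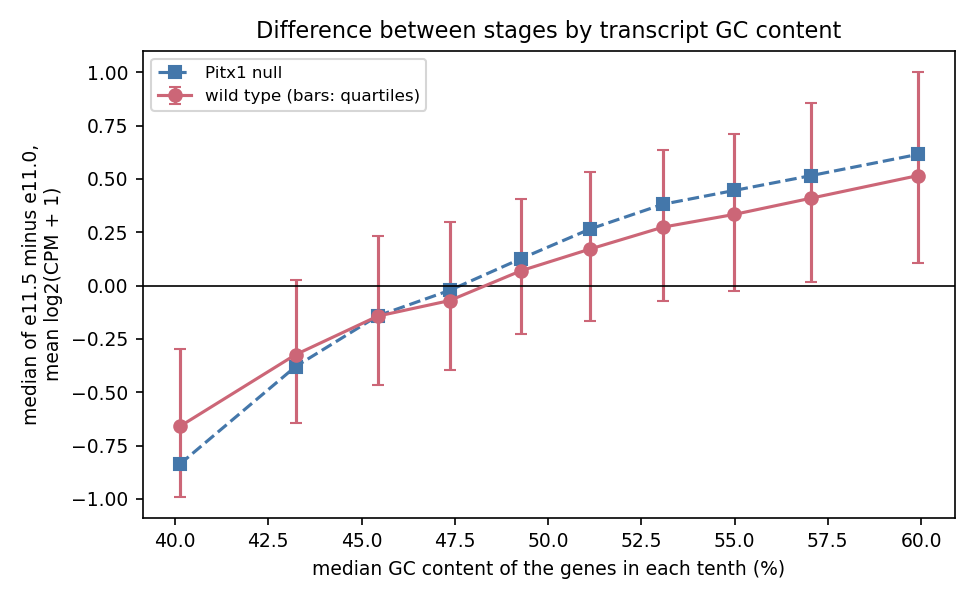
Median difference between the stages in mean log2(CPM + 1) for genes in 10 equal groups by transcript GC content, in wild type (circles, bars from the lower to the upper quartile) and null hindlimbs (squares). The wild type medians climb from -0.66 to 0.52 and those of the null from -0.84 to 0.62.

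Over the whole table, the largest calls were ranked among protein coding genes with a mean of at least 5 CPM at the higher stage. The largest was Iglon5, an immunoglobulin cell adhesion gene, from 2.72, 2.24 and 4.68 CPM to 35.5, 35.6 and 42.2 CPM (3.24 ± 0.26). Tcf7l1, a repressor of Wnt targets, went from 12.969, 8.65 and 23.3 CPM to 128, 129.8 and 163 CPM (3.24 ± 0.40), and its percentile rank from 29.6 to 85.0. The chromatin genes Kdm6b (2.98 ± 0.54), a histone demethylase, and Setd1b (2.94 ± 0.42), a histone methyltransferase, were higher at e11.5, with transcripts of 59.6% and 59.0% GC. Six2, a homeobox gene of connective tissue progenitors, went from 0.85, 1.09 and 1.497 CPM to 13.1, 18.0 and 18.1 CPM (3.02 ± 0.19), and Hsd11b2, which inactivates glucocorticoids, from 19.4, 15.3 and 16.4 CPM to 117, 117 and 158 CPM (2.86 ± 0.17). Zfp703, a zinc finger repressor, rose in percentile rank from 32.1 to 81.5.

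At the other end stood Taf1d, a subunit of the RNA polymerase I initiation complex, from 379, 426 and 441 CPM to 65.0, 44.1 and 68.8 CPM (-2.81 ± 0.21). Hgf, the Met ligand that guides muscle precursors into the limb, fell from 67.6, 82.0 and 55.1 CPM to 15.2, 12.5 and 14.2 CPM (-2.20 ± 0.18), and its percentile rank from 68.9 to 27.014. Arhgap19, a GTPase-activating protein, fell from 88.7, 34.9 and 45.8 CPM to 10.6, 6.96 and 13.6 CPM (-2.27 ± 0.47, and -3.52 against CD1 e11.0). Gpc5, a heparan sulfate proteoglycan, fell from 10.024, 12.8 and 8.31 CPM to 1.53, 1.92 and 1.78 CPM (-2.03 ± 0.17), and Ikzf2, a zinc finger factor, from 25.5, 29.1 and 44.4 CPM to 7.67, 7.13 and 9.76 CPM (-1.86 ± 0.26). The zinc finger genes Zfp930 (-1.93 ± 0.17) and Zfp945 (-1.88 ± 0.12), of a family whose similar copies can share reads, were lower with transcripts of 38.1% and 35.9% GC. Pus3 (-2.58 ± 1.496), a pseudouridine synthase, was at 22.6, 21.7 and 0.0387 CPM at e11.5, far lower in the unstranded replicate 3 than in the stranded replicates 1 and 2. Whether counting without strand bears on this value was not tested.

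Rank order was largely kept between the stages. Spearman's rho of mean levels across the 12056 genes was 0.929, against 0.973 to 0.997 between libraries of 1 stage and 0.873 to 0.945 between libraries of different stages. Of these genes 3490 moved by at least 10 percentile points, 1712 up and 1778 down. Among members of the lists, Sox9, Sfrp2 (36.0 to 77.8) and Col9a2 (7.59 to 46.7) climbed most in percentile rank, while Lin28a (69.8 to 32.9) and Rarb (69.3 to 37.6) dropped most outside the nuclear RNA list.

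The null hindlimbs gave close to the same differences between the stages. Of the genes called in the wild type, 1054 of 1171 higher and 570 of 609 lower genes were called in the null with the same sign, and 0 with the opposite sign. These are 1054 of 1414 higher and 570 of 956 lower genes of the null. Across genes, Spearman's rho between the 2 sets of differences was 0.96, and both sets carry the change of library kind. The cartilage collagens differed less in the null than in the wild type. Col9a2 differed by 1.71 in null hindlimbs, from 1.37, 1.66 and 3.62 CPM to 13.6, 10.3 and 5.20 CPM, Col9a3 by 1.18 and Col2a1 by 0.52, each under its wild type value, while Sox9 (2.77) and Hoxd13 (2.32) lay close to theirs. Whether these differences depend on genotype was not tested here.

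**Figure D5:**
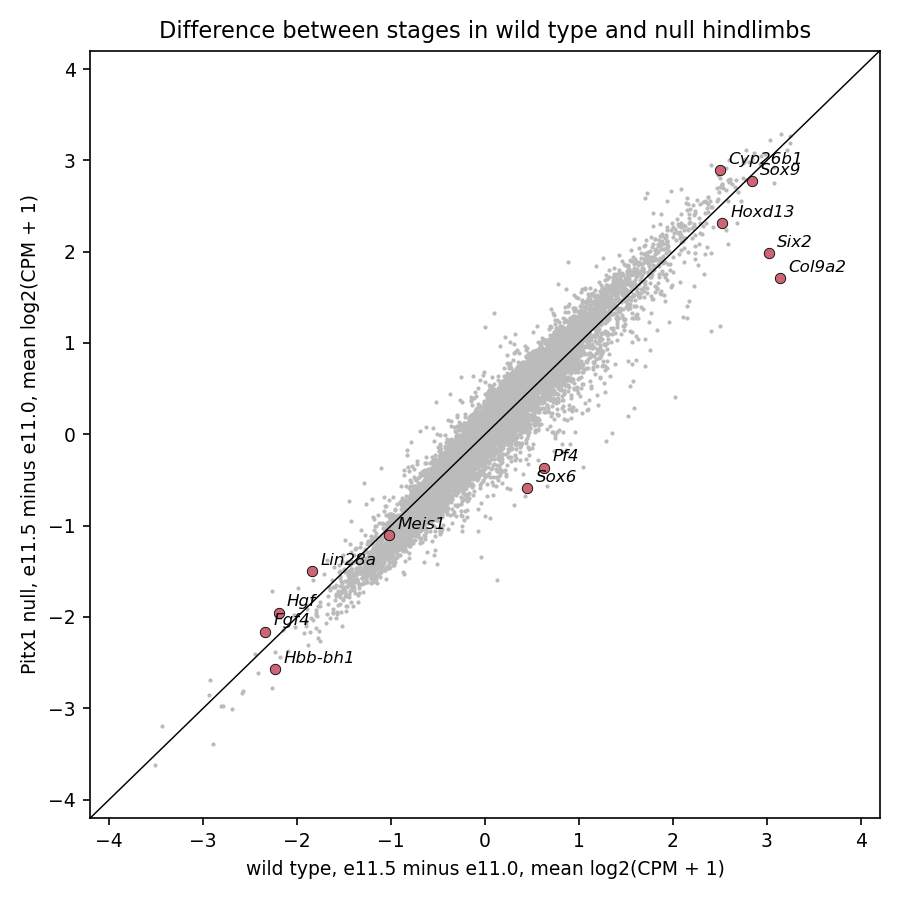
Difference between the stages, e11.5 minus e11.0 in mean log2(CPM + 1), in wild type (x axis) and Pitx1 null hindlimbs (y axis) for each gene, with named genes in red and 4 genes beyond the axes left out. Most genes lie along the diagonal line of equal values, and Col9a2, Six2, Sox6 and Pf4 lie below it.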

How the data were processed

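RNA was measured by sequencing in hindlimb buds. The authors deposited CPM (counts per 1000000 reads) per gene in 3 tables of 6 libraries, the null and wild type at each stage and, with CD1 hindlimbs, a limb comparison. The submitters' processing notes name STAR, featureCounts, edgeR and the GRCm38 (mm10) build, with no versions. All genes of a table lay above 1 CPM in 3 or more of its 6 libraries, a limit that affects genes near that level. The e11.0 and e11.5 tables were joined by gene ID, symbols beginning Hist, mt-, Rn7s or Gm or ending in Rik were dropped, and each column was rescaled to a total of 1000000, so levels are above the deposited CPM, by more at e11.0 than at e11.5.

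Values were compared as log2(CPM + 1), a scale that understates the change of low genes. Because the tables were normalized separately and the kind of library changed with stage, no test was run and no p-value is given. With 3 against 3 libraries an exact permutation test of a single gene cannot go under p = 0.1. A large change meant a mean difference of at least 1 with no overlap of the 3 and 3 libraries. The calculation was tested on simulated data. These held no shift of library kind, GC content or run, so they cannot show how often a gene is called wrongly here. GC content and 3′ UTRs were taken from the longest coding transcript of a gene in GENCODE (release M21, GRCm38), the let-7a sequence from the RefSeq table.

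Named genes were the 15 largest changes in each direction (protein coding, a mean of at least 5 CPM at the higher stage, the same sign with a size of at least 1 in replicates 1 and 2 alone), up to 6 called members and the 3 most abundant of each list, the 5 largest moves in percentile rank each way, Pitx1 and Tbx4. Other list members were chosen after their values were seen, to complete a family. Some genes that meet the rule, and 1 matched sequence, are not reported here. The members and the lists were chosen with earlier results of these data known. Replicates 1 and 2 of both stages come from 1 sequencing run, per the labels. Replicate 3 comes from run 3412 at e11.0 and run 126 at e11.5. Of the CD1 e11.0 libraries, replicates 1 and 2 come from the run of the BALB/c replicates 1 and 2, and the label of replicate 3 names no run. Alternatives were other pseudocounts (0.5 and 2), scalings, filters, left-out libraries, the run, exonic length, null and CD1 libraries, and, added after seeing the data, centring by GC content. Calculations used Python 3.11.15, pandas 2.3.3, numpy 2.4.6 and matplotlib 3.10.9.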

Additional observations from a re-analysis of the deposited data

Results flagged for a closer look

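The difference between the stages had opposite signs in wild type and null hindlimbs for 2 list members, with all e11.5 libraries on one side of all e11.0 libraries in the wild type and on the other side in the null. The difference between the genotypes was not tested. In the wild type 34.7% of all genes were higher and 27.2% lower with no overlap at any size. How many of all genes had opposite signs in this way was not counted, so the 2 genes are given as a description only. Sox6, a Sox9 partner in cartilage, was at 19.5, 20.4 and 27.9 CPM at e11.0 and 29.9, 34.8 and 28.3 CPM at e11.5 in the wild type (0.45), and at 17.2, 19.3 and 20.1 CPM and 15.4, 11.3 and 10.6 CPM in the null (-0.59), a null minus wild type difference of -1.04. Pf4, a chemokine of platelets and fetal macrophages, was at 5.38, 6.86 and 5.21 CPM and 8.60, 9.51 and 10.4 CPM in the wild type (0.63), and at 7.79, 8.77 and 9.31 CPM and 6.08, 6.71 and 6.58 CPM in the null (-0.37), a null minus wild type difference of -0.99.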

How the results depend on the processing

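Of 195 named genes, 143 passed the rule, and over 18 alternative settings 3108 of 3508 values for named genes moved by less than 1 SD, the others further. The settings include the filter at a mean of 1 CPM, which removes genes without rescaling and so could not move a value. The settings were not alike in this. Against CD1 e11.0, 82 of 141 genes past the rule still differed by at least 1 in the same direction. After centring by GC content 114 of 143 did, and in each other setting 128 to 143 did. Among the 143 genes past the rule 1 value changed sign, Wnt7a at 0.0452 against CD1 e11.0, and some genes not past the rule, such as Axin2 and Id3 with trimmed-mean scaling, changed sign too. The 1171 higher and 609 lower genes became 969 and 797 with trimmed-mean, 986 and 786 with median-ratio and 956 and 812 with upper-quartile scaling, which moved the median of all genes from 0.07 to -0.02, -0.01 and -0.03. They were 1249 and 663 with a pseudocount of 0.5, 1055 and 519 with 2, 1395 and 563 with all genes kept, 1404 and 536 with replicates 1 and 2 of both stages alone (1 sequencing run), 976 and 727 after centring by exonic length, 944 to 1533 and 521 to 720 with 1 library left out, 1414 and 956 in the null, 877 and 129 against CD1 e11.0 and 800 and 380 after centring by GC content, the last chosen after seeing the data. Over the gene lists, 83 members were higher and 86 lower. The lower members numbered 49 with replicates 1 and 2 alone, 52 to 106 with 1 library left out (52 without e11.0 replicate 3) and 20 against CD1 e11.0, and the cause was not tested. List medians changed sign with the other scalings for the Bmp and cell cycle lists. Genes near 1 CPM have coarse values, and a gene under that limit in 1 table was not analysed here.

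The results come from no test, so the replicate number was used as a block in counts alone. The labels tie no e11.0 library to an e11.5 library of the same number, so this pairing is arbitrary. With each same-numbered difference past 1, 708 genes were higher and 218 lower, with 18 lower list members.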

Other observations

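Xist, the RNA of the inactive X chromosome, differed more among libraries of a stage than between the stages. It was at 5.78, 416 and 799 CPM in wild type e11.0 replicates 1 to 3 and 0.0869, 143 and 601 CPM in e11.5 replicates 1 to 3. In null hindlimbs it was at 3.39, 308 and 787 CPM and 0.236, 70.7 and 667 CPM. The wild type difference between the stages (-1.53 ± 3.50) overlapped.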
